A study of Mus musculus with 764 samples.

Results

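Genes of the NF-kappaB pathway and its negative feedback were compared between IL-10-producing CD4+ T cells of the small intestine and of the spleen. The 33 member genes were taken by name from a fixed list and not by a cutoff on a measured value. The list was chosen with earlier results of these data known. All 33 were present among the 23997 gene rows of the count tables. They were grouped by role into 5 NF-kappaB subunits, 3 classical inhibitors of kappaB, 3 nuclear inhibitor-like proteins, 6 kinases, 2 antigen receptor adaptors, 6 TRAF and cIAP genes, 5 further negative feedback genes and 3 genes for a target or adaptor protein. The cells came from IL-10eGFP Foxp3mRFP double reporter mice, in which green fluorescence marks Il10 activity and red fluorescence marks Foxp3, and every mouse had received antibody against CD3, which engages the T cell receptor and expands IL-10-producing T cells. The cells were taken within hours of the last dose, and no untreated mouse was in the data. Per the study's methods the sort kept IL-10 reporter-positive CD4+ T cells and let Foxp3+ cells in, small intestinal lymphocytes were released by EDTA and collagenase at body temperature, and mice were young adults. The labels gave the tissue, the treatment, a plate (p1 or p2) and a well, but no animal, genotype, sex or age.

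Each library was 1 cell, sequenced by SMART-seq2, which copies whole transcripts; since it carries no molecular identifiers, values are reads and not molecules. Of 764 deposited cells, 190 were small intestinal and the remainder splenic. Read totals ran from 6659 to 580400 per cell in the small intestine (median 314228) and from 25799 to 622997 in the spleen (median 340912). Shallow cells and cells called S or G2M were removed, which kept 72.1% of the small intestinal and 69.5% of the splenic cells; the numbers of cells per set are given with the processing. All small intestinal cells lay in columns 13 to 24 of p2. The spleen was therefore read as 3 well sets, columns 1 to 12 of p1, columns 13 to 24 of p1 and columns 1 to 12 of p2, named in this order below. The sets differed in Foxp3, with a read in 63.6%, 17.9% and 6.56% of their cells, against 6.57% in the small intestine. Because no animal was named, each tissue counted as 1 sample, so no p-value was computed and cells were not used as replicates. The 3 spleen sets are given as the spread between wells of 1 tissue. That spread also holds their difference in Foxp3+ cells, and it covers neither the small intestine nor differences between animals. On p2, tissue and plate position cannot be told apart. Cd4 and Cd3e, which define the sorted cells, had a read in 100% of kept cells of both tissues.

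NF-kappaB is a family of dimeric transcription factors that resting T cells hold in the cytoplasm through inhibitors of kappaB. Engagement of the antigen receptor recruits BCL10 and MALT1, which help to switch on the inhibitor of kappaB kinase; TNF receptors reach the same kinase through TRAF and cIAP ubiquitin ligases, and a noncanonical branch runs through NIK (Map3k14). The kinase marks the inhibitor for degradation, the subunits enter the nucleus, and among the genes they switch on are their own brakes, including Nfkbia (IkappaB-alpha) and Tnfaip3 (the ubiquitin-editing enzyme A20).

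Promoter sequence is shown first for 6 members, because the DNA letters that the subunits bind, the kappaB consensus of 10 bases, lie just before the start of members with several roles. RefSeq windows (GRCm38.p6) were matched by symbol for 26 of the 33 members. The consensus was searched on both strands in the 250 bases before each start, and overlapping matches were merged. It was found in 11 of the 26 members (42.3%), against 4.46% of 27025 genes with a window and 3.9% of 32851 windows. The 150 bases before the start are printed 5′ to 3′ on the gene's own strand, with the consensus in capitals, for the 3 members with a match that were 2-fold higher in the small intestine (Nfkbia, Tnfaip3 and Sqstm1) and for 3 with a match that were not (Nfkb2, Rel and Tnip1).
Nfkbia: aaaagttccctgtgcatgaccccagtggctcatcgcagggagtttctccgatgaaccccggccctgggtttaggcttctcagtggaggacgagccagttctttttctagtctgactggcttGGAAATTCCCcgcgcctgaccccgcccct
Tnfaip3: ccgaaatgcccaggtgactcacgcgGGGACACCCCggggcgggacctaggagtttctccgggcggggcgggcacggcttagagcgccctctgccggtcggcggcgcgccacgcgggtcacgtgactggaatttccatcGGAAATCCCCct
Sqstm1: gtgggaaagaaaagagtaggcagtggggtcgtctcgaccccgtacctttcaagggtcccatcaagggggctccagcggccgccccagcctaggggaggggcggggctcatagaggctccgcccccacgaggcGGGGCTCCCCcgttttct
Nfkb2: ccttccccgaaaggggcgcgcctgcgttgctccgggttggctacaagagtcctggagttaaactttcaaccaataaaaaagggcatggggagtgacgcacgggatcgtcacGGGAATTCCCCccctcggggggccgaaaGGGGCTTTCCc
Rel: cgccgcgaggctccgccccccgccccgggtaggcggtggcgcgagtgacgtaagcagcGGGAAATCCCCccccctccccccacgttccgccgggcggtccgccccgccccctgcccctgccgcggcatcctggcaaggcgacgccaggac
Tnip1: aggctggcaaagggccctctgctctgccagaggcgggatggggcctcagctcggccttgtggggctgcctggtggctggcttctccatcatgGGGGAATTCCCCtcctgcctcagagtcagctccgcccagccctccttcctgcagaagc
These stretches lie at chr12:55492648-55492797, minus strand (Nfkbia), at chr10:19015411-19015560, minus strand (Tnfaip3), at chr11:50210821-50210970, minus strand (Sqstm1), at chr19:46304587-46304736, plus strand (Nfkb2), at chr11:23770970-23771119, minus strand (Rel) and at chr11:54962941-54963090, minus strand (Tnip1). Tnfaip3 held 2 separate matches, from position -125 to -116 and from -12 to -3, counted from the first transcribed base. Nfkb2 also held 2 in its first window, and the merged matches of Nfkb2, Rel and Tnip1 read the same or nearly the same on both strands. Matches in the other 5 members were in Nfkbie, Nfkbid, Bcl10, Traf3 and Cyld. Of the 8 members that were 2-fold higher in the small intestine, 6 had a window and 3 of these a match; of members not called, 20 had a window and 8 a match. Birc2, Zc3h12a and Icam1 had a window without the consensus, as did all kinases with a window (Chuk, Ikbkg, Ikbke and Map3k14). A match is a run of letters and says nothing of binding in these cells.

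Taken as 1 score, the members stood higher in the small intestine. The module mean, which is the mean of log2(CPM + 1) over the 33 genes in a cell, was 3.97 (SD 0.75 over kept cells) in the small intestine and 3.22 (SD 0.82) in the spleen, a difference of 0.75. The spleen sets had means of 3.24, 3.28 and 3.12, a range of 0.16, so the difference was 0.74, 0.69 and 0.85 against each of them. Over all 8362 genes tested the median difference ran the other way, at -0.17. Single cells overlapped widely, from 1.89 to 5.80 in the small intestine and from 1.31 to 5.77 in the spleen, and 83.2% of small intestinal cells lay above the spleen median. The members took 0.92% of the reads of a small intestinal cell on average and 0.47% of those of a splenic cell. A small intestinal cell had reads of 17.36 members on average and a splenic cell of 15.15, and with each cell thinned to 200000 reads the numbers were 16.97 and 14.59. CPM is a share of the reads of a cell, so all values here are relative to the rest of its RNA.

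**Figure D1:**
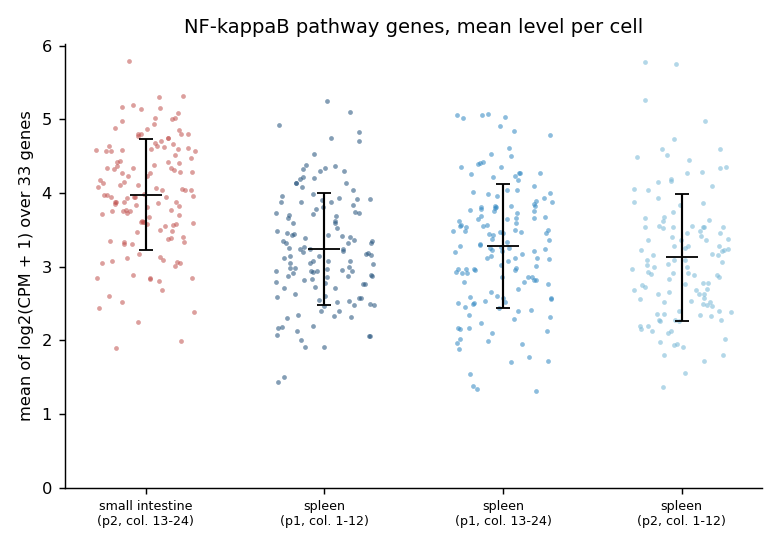
Mean of log2(CPM + 1) over the 33 members (vertical axis) in each kept cell of the small intestine and of the 3 spleen well sets (points), with the mean and the SD over cells (bars). The small intestine has a mean of 3.97 and the spleen sets have means between 3.12 and 3.28, while the ranges of single cells overlap.

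The difference was carried unevenly. Tnfaip3, Nfkbiz and Nfkbia made up 50.8% of the summed member differences in mean log2(CPM + 1), Tnfaip3 alone 27.3%, and the module difference without the 3 genes was 0.41. By role, the difference of the group mean on the same scale was largest for the negative feedback genes (1.93). The nuclear inhibitor-like proteins (1.86) and the target and adaptor genes (1.24) came next. Inhibitors of kappaB (0.73), kinases (0.42), TRAF and cIAP genes (0.37) and subunits (0.16) followed. The antigen receptor adaptors were lower in the small intestine, at -0.89, through Malt1, while Bcl10 was higher. A group mean can rest on 1 gene. The median log2 ratio of mean CPM + 1, small intestine over spleen, was 0.19 for negative feedback genes, where Tnfaip3 had 3.7. It was 0.51 for the nuclear inhibitor-like proteins (Nfkbiz 2.61), 1.06 for the target and adaptor genes and 0.19 for the TRAF and cIAP genes.

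Gene by gene, a member was called 2-fold higher or lower when the log2 ratio of mean CPM + 1, small intestine over spleen, was at least 1 or at most -1 and the small intestinal mean lay beyond all 3 spleen sets. Genes needed a mean of the tissue means of at least 10 CPM, which 32 members passed and Cd83 did not. Of the 32, 8 were 2-fold higher (25%), against 7.5% of all genes tested, and 1 was 2-fold lower, against 15.2%. The small intestinal mean lay above all 3 spleen sets for 17 members (24.9% of all genes), below all 3 for 5 (44.2% of all genes) and within their range for 10. The median log2 ratio was 0.18 over members and -0.21 over all genes. Among the spleen sets themselves no member reached a 2-fold difference between the column blocks of p1 (3.9% of all genes higher in columns 13 to 24 and 3.36% lower). Between p2 and p1 spleen cells no member was 2-fold higher in p2 (3.85% of all genes), and Rel alone was 2-fold lower (4.88% of all genes).

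**Figure D2:**
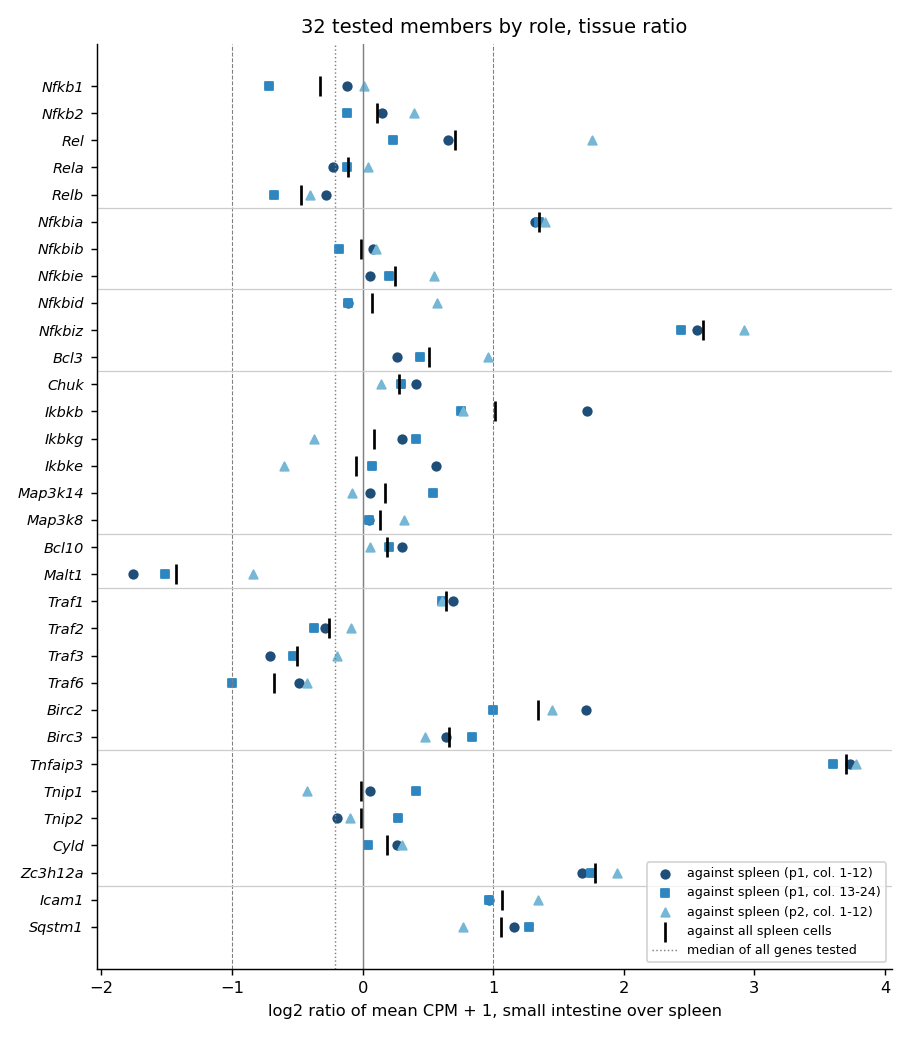
Log2 ratio of mean CPM + 1, small intestine over spleen (horizontal axis), for the 32 tested members in order of role, against each spleen set (points) and against all spleen cells (bars), with lines at -1, 0 and 1 and the median of all genes dotted. Tnfaip3, Nfkbiz and Zc3h12a lie farthest to the right and Malt1 farthest to the left.

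Of the 32 tested members, Tnfaip3 had the largest log2 ratio. It is the gene of A20, which trims and adds ubiquitin chains on signalling proteins and so shuts NF-kappaB activation off. Its level was lowest at 7.11, had a median of 2370 and was highest at 8831 CPM over small intestinal cells, and ran from 0 through a median of 11.6 to 3108 CPM over splenic cells. Every small intestinal cell thus had a read of Tnfaip3, and 36.5% of them (50 cells) lay above the highest splenic cell, while 0.501% of splenic cells reached past the small intestinal median. Small intestinal cells averaged 2608 CPM, against 195.2, 213.8 and 189.1 CPM for the spleen sets, a log2 ratio of 3.70 and of 3.60 to 3.78 against single sets, which placed it 57th among the 8362 genes tested. A read was found in 100% of small intestinal cells (95% exact Clopper-Pearson interval 97.3 to 100%) and in 61.4% of splenic cells (56.4 to 66.2%); intervals cover counting error only. After thinning to equal depth the shares were 99.2% and 58%.

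The other feedback genes did not move as 1 block. Zc3h12a, which encodes the RNase regnase-1 that degrades transcripts of inflammatory genes, had low levels throughout, averaging 33.4 CPM in the small intestine against 9.72, 9.26 and 7.90 CPM in the spleen sets, a log2 ratio of 1.78. Its median was 0 in both tissues and its highest cells were alike (229.8 and 216.3 CPM), but a read was found in 48.9% of small intestinal and 19% of splenic cells. Cyld, a deubiquitinase that removes activating chains, was slightly above all 3 spleen sets with a log2 ratio of 0.19. Tnip1 and Tnip2, which bind A20 and ubiquitin, both had a log2 ratio of -0.01 and fell between the lowest and highest spleen set.

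Among the inhibitors of kappaB, Nfkbia was the one that differed. It ran from 0 through a median of 1177 to 5510 CPM in small intestinal cells and from 0 through 397.3 to 3612 CPM in splenic cells. The groups overlapped, with 80.3% of small intestinal cells above the spleen median and 7.77% of splenic cells above the small intestinal median. The mean was 1352 CPM against 541.4, 531.2 and 512.4 CPM in the spleen sets, and the log2 ratio of 1.35 changed little between sets (1.32 to 1.40). Nearly all cells had a read in either tissue (95.6% and 93%), so the difference lay in the level and not in the share of cells. Nfkbib and Nfkbie, the beta and epsilon inhibitors, had log2 ratios of -0.01 and 0.25.

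Of the nuclear inhibitor-like proteins, which bind subunits in the nucleus and can raise or lower transcription there, Nfkbiz (IkappaB-zeta) showed the largest ratio. It ran from 0 through a median of 648.8 to 4538 CPM in the small intestine and from 0 through 12.6 to 2659 CPM in the spleen, with means of 915.9 CPM against 153.98, 168.4 and 120.1 CPM. The log2 ratio was 2.61, between 2.44 and 2.92 against single sets, and a read was found in 93.4% of small intestinal and 60.4% of splenic cells. At least 10 reads were found in 83.9% of small intestinal and 46.1% of splenic cells. Small intestinal cells were thus mostly high, while splenic cells ran from no read through low levels to an upper quartile of 221.3 CPM and beyond. Bcl3, a coactivator of p50 and p52 dimers, was above all 3 sets at a log2 ratio of 0.51, with a read in 83.9% and 70.2% of cells. Nfkbid lay within the range of the sets (0.07).

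**Figure D3:**
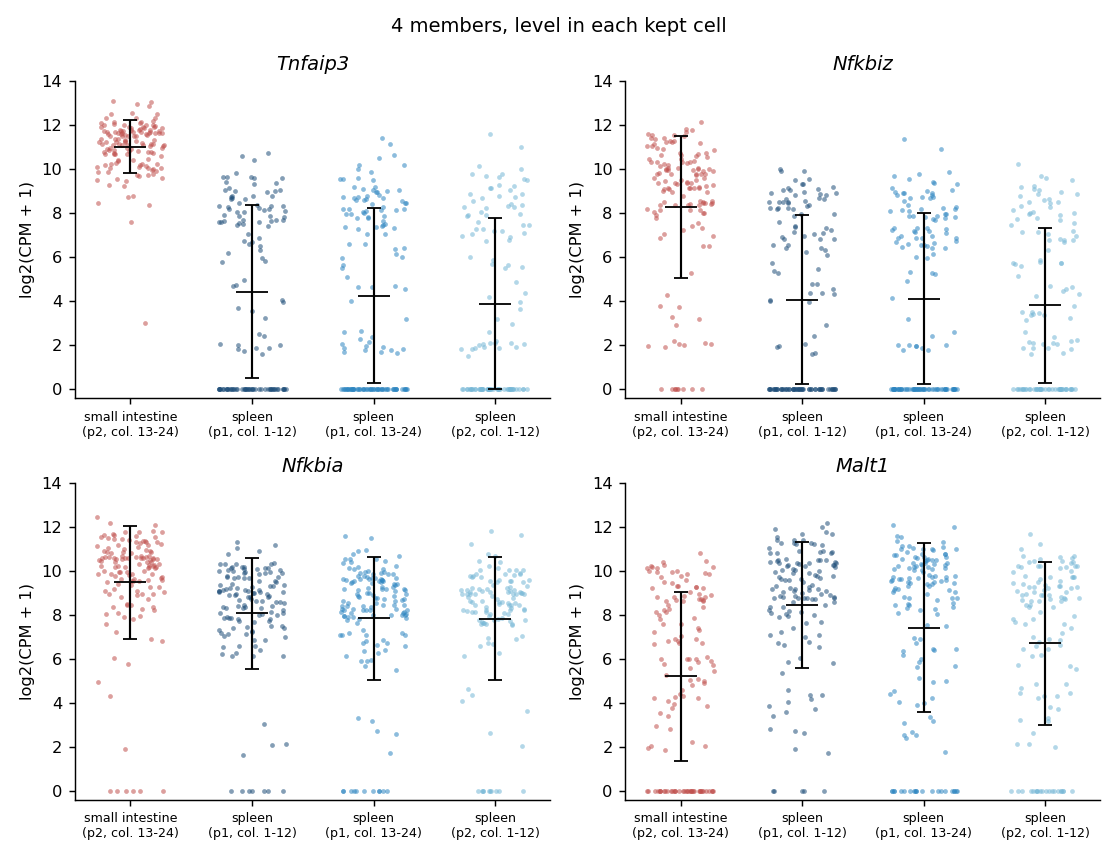
Level of Tnfaip3, Nfkbiz, Nfkbia and Malt1 as log2(CPM + 1) (vertical axes) in each kept cell of the small intestine and of the 3 spleen well sets (points), with the mean and the SD over cells (bars). Tnfaip3 is read in all kept small intestinal cells and in 61.4% of splenic cells, and Malt1 has more cells at 0 in the small intestine.

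The subunits themselves differed little. Rela (p65) had a mean of 176.4 CPM in small intestinal cells against 207.1, 192.4 and 171.3 CPM in the 3 spleen sets, a log2 ratio of -0.11, with a read in 70.8% and 66.2% of cells. Nfkb1 (p105 and p50) had a mean of 203.9 CPM against 221.2, 335.6 and 202.3 CPM, a log2 ratio of -0.33, with a read in 62.8% and 74.2% of cells. Nfkb2 (p100 and p52) had a mean of 79.9 CPM against 71.8, 86.6 and 60.95 CPM, a log2 ratio of 0.11, with a read in 48.9% and 46.6% of cells. All 3 fell inside the span of the spleen sets, so their tissue difference was no larger than that between wells of spleen cells.

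Relb, the partner of p52 in the noncanonical branch, was below all 3 sets with a mean of 47.02 CPM against 57.1, 76.2 and 62.5 CPM, a log2 ratio of -0.47, and with a read in 30.7% and 37.3% of cells. Rel (c-Rel), the subunit most tied to T cell activation, was the exception on the higher side. It averaged 56.8 CPM in small intestinal cells against 35.8, 48.3 and 16.1 CPM, and it was read in 50.4% of small intestinal cells (41.7 to 59%) and 23.3% of splenic cells (19.2 to 27.8%). The log2 ratio of 0.71 rested on the set chosen, at 0.65 and 0.23 against p1 and 1.76 against p2, since p2 spleen cells were lower than p1 spleen cells by a log2 ratio of -1.34. The share of cells was higher than in each of the sets (19.7%, 32.4% and 16.4%), and the median level was 1.94 CPM in the small intestine against 0 in the spleen.

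In the kinase group Ikbkb, the catalytic subunit of the canonical kinase, was the only member called. Its mean was 298.7 CPM against 90.03, 177.2 and 174.8 CPM, and it ran from 0 through a median of 77.7 to 2404 CPM in the small intestine and from 0 through 5.46 to 1602 CPM in the spleen. The log2 ratio of 1.01 was near the limit, at 1.72 against columns 1 to 12 of p1 and 0.75 and 0.77 against the other sets, and a read was found in 72.3% and 56.4% of cells. Chuk, the other catalytic subunit, had a log2 ratio of 0.28, and Ikbkg (NEMO), the regulatory subunit, of 0.09. Map3k8 (TPL2), Map3k14 (NIK) and Ikbke had ratios of 0.13, 0.17 and -0.05. Only Chuk and Map3k8 of these 5 lay above all 3 spleen sets.

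Malt1, the paracaspase of the antigen receptor complex that also cleaves A20 and regnase-1, was the member called 2-fold lower. It ran from 0 through a median of 59.4 to 1779 CPM in the small intestine and from 0 through 478.9 to 4676 CPM in the spleen. The groups overlapped, and 21.2% of small intestinal cells lay above the spleen median. The mean was 271.8 CPM against 920.6, 775.3 and 485.7 CPM, and a read was found in 72.3% of small intestinal cells (64 to 79.6%) and 88.5% of splenic cells (84.9 to 91.4%). The log2 ratio was -1.43 over all spleen cells, -1.76 and -1.51 against the p1 sets and -0.84 against spleen cells of the same plate, where it would not have been called. Its partner Bcl10 was above all 3 sets by a small margin (log2 ratio 0.19), with a read in 51.8% and 39.3% of cells.

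The TRAF and cIAP genes build the ubiquitin platform below TNF receptors. Of these, the cIAP genes and Traf1 lay above all 3 spleen sets and Traf2, Traf3 and Traf6 below. Birc2 (cIAP1) had a mean of 177.03 CPM against 53.3, 87.9 and 64.4 CPM, a log2 ratio of 1.34, with a read in 41.6% and 26.3% of cells. Birc3 (cIAP2), itself an NF-kappaB target, had a mean of 208.3 CPM against 133.3, 116.2 and 148.54 CPM, a log2 ratio of 0.66, with a read in 59.1% and 44.9% of cells. Both lay above all 3 sets, as did Traf1, another target, at a log2 ratio of 0.64. Traf6, which serves Toll-like and interleukin-1 receptors, had a mean of 36.01 CPM against 51.1, 73.1 and 49.02 CPM, a log2 ratio of -0.68, with a read in 29.9% and 29.6% of cells; its 5 highest small intestinal cells held 52.7% of its summed CPM there. Traf2 and Traf3, which restrain NIK, lay below all 3 sets as well, at -0.26 and -0.50. The median log2 ratio over all genes tested was -0.21, and 44.2% of them lay below all 3 sets, against 24.9% above.

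Of the target and adaptor genes, Icam1, the adhesion molecule bound by LFA-1, ran from 0 through a median of 6.75 to 1409 CPM in the small intestine and from 0 through 0 to 1809 CPM in the spleen. Its mean was 157.9 CPM against 79.9, 80.2 and 61.9 CPM, a log2 ratio of 1.07, with a read in 51.1% and 31.6% of cells. Sqstm1 (p62), a ubiquitin-binding adaptor and autophagy receptor, had a mean of 709.9 CPM against 318.2, 294.1 and 415.6 CPM, a log2 ratio of 1.06, with a read in 92% and 77.7% of cells. The median small intestinal cell held 682.6 CPM of Sqstm1, against 262.96 CPM in the median splenic cell. Cd83, an activation marker of lymphocytes and dendritic cells, had 0 reads over the kept small intestinal cells, with an exact 95% upper limit of 2.66% on the share of cells with a read, and a read in 12 splenic cells (3.01%). Its summed reads were 0 and 1535, and 687 of the splenic reads came from 3 cells, so no fold was drawn from them. Of the 12 cells, 1 had a read of a B cell marker and 1 of a myeloid marker.

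**Figure D4:**
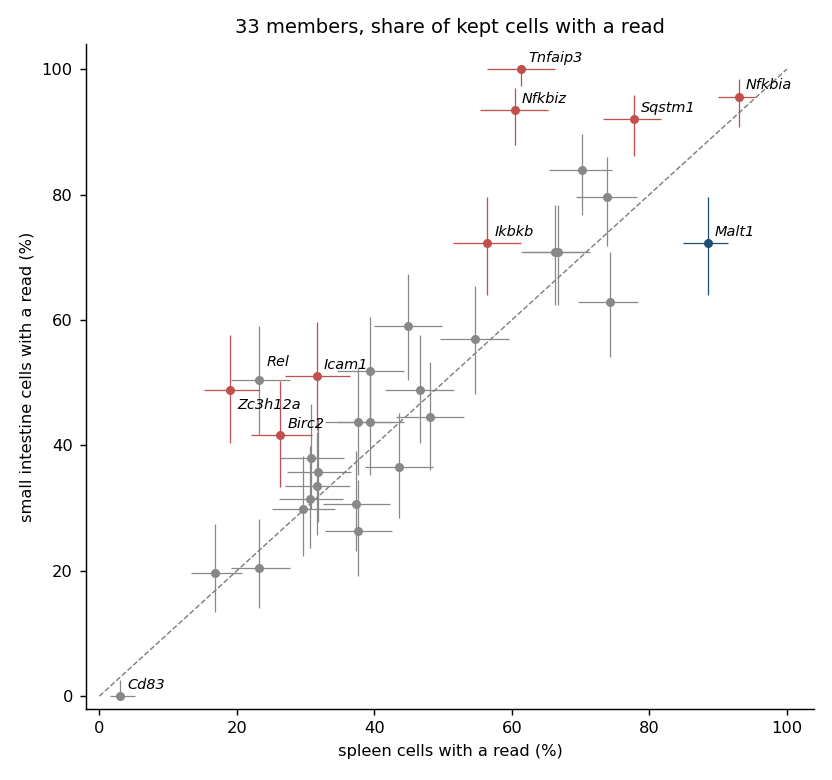
Share of kept cells with a read of each of the 33 members in the spleen (horizontal axis, %) and in the small intestine (vertical axis, %), with 95% exact binomial intervals and the line of equal shares. Red marks the 8 members called 2-fold higher and blue Malt1; Tnfaip3 stands at 100% and 61.4%, and Cd83 at 0 and 3.01%.

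Across 14 alternatives of filter, scaling, pseudocount and spleen cells, Tnfaip3, Nfkbiz, Nfkbia, Birc2 and Zc3h12a kept their call in all 14. Sqstm1 and Malt1 kept it in 13 and lost it against p2 spleen cells, where their log2 ratios were 0.77 and -0.84. Icam1 kept it in 9 and Ikbkb in 8. Cells with a Cd8a read numbered 39 (28.5%) in the small intestine and 6 (1.5%) in the spleen; without them the module difference was 0.89 and Ikbkb alone lost its call.

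Other measures moved between the tissues beside the members. A list of 18 genes known to respond to tissue dissociation and stress had 14 tested genes. Of these, 5 were 2-fold higher in the small intestine (7.5% of all genes) and 0 lower (15.2% of all genes). The mean summed level of the list was 5160 CPM there against 2588, 2497 and 2253 CPM in the spleen sets. The 5 were Btg2 (log2 ratio 2.51), Junb (2.31), Dusp1 (2.26), Fosb (2.11) and Jun (1.64), while Egr1, Hsp90aa1, Dnajb1 and Zfp36 were below all 3 sets. Across small intestinal cells the summed list had a Spearman correlation of 0.27 with Tnfaip3, 0.34 with Nfkbiz and 0.32 with Nfkbia, and in the spleen sets of -0.21, 0.14 and 0.00 with Tnfaip3, 0.10, 0.17 and 0.07 with Nfkbiz and 0.14, 0.11 and 0.35 with Nfkbia. A list of 10 antigen receptor response genes had 3 tested genes higher (Nr4a2, Cd69 and Nr4a1) and 3 lower (Egr2, Myc and Tnfrsf4) of 9. The shares over all genes were 7.5% and 15.2%. The mean summed level of this list was 2932 CPM against 4668, 3843 and 2639 CPM. In small intestinal cells its sum correlated at 0.22 with Tnfaip3, 0.23 with Nfkbiz and 0.30 with Nfkbia. The spleen sets had -0.03, -0.01 and -0.11, then 0.15, -0.06 and 0.11, then 0.07, 0.19 and 0.18, in that order of genes. In the small intestine Malt1 had 0.25 with the stress list and 0.23 with this one. Over the 4 sets the module mean had 0.25, 0.18, 0.23 and 0.29 with the stress list as mean log2(CPM + 1). It had 0.30, 0.19, 0.40 and 0.46 with this list. The part of these lists in the results was not tested.

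Some markers of other cell types were higher in the small intestine. All 3 B cell and myeloid markers that passed the limit of 10 CPM, Cd79b, Blk and Cd68, were called 2-fold higher there (7.5% of all genes). Cd68 was read in 37.2% of small intestinal and 14.8% of splenic cells. The 6 B cell markers summed to a mean of 51.1 CPM in small intestinal cells against 4.10 to 25.4 CPM in splenic ones, through Blk (30.7 CPM) and Cd79b (19.7 CPM), with Ms4a1 at 0 in the small intestine. The myeloid list summed to 107.005 CPM against 28.02 to 34.2 CPM, nearly all of it Cd68 (104.9 CPM), with Lyz2, Clec9a and Csf3r at 0. The epithelial list summed to 18.8 CPM against 17.5 to 64.2 CPM. Leaving out cells that had reads of 2 or more of these markers removed 27 small intestinal cells (19.7%) and 21 splenic cells (5.26%), and the module difference was then 0.70.

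Further genes of the pathway were taken as 3 lists. All 3 had a median log2 ratio above that of all genes tested (-0.21), and the target list had the highest. Over all genes tested, 7.5% were 2-fold higher and 15.2% lower. Of 18 tested upstream signalling genes, 1 was 2-fold higher and 1 lower, with a median log2 ratio of -0.01. Prkcq, a kinase of antigen receptor signalling, was lower at -1.87, Tnfrsf1a, a TNF receptor, was higher at 1.14, and Ltbr fell under the limit of 10 CPM. Of 19 tested ubiquitin and other feedback genes, 1 was higher (7.5% of all genes) and 3 lower (15.2% of all genes), with a median of -0.14. The largest ratios there were negative, in Usp18, a brake on type I interferon signalling (-3.39), Tnip3, a relative of Tnip1 (-2.10), and Zc3h12d, a relative of Zc3h12a (-1.37). Tnip3 averaged 102.5 CPM in the small intestine against 278.7 to 516.9 CPM over the spleen sets, so this feedback gene stood opposite to Tnfaip3.

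Of 16 tested further target genes, 2 were higher (7.5% of all genes) and 1 lower (15.2% of all genes), with a median log2 ratio of 0.22. Gadd45b, a stress and survival gene, was higher at 3.73 and the chemokine Ccl5 at 3.04, while Tnfsf14 (LIGHT) was lower at -4.53. Ccl5 had a mean of 12030 CPM in small intestinal cells against 816.5, 2080 and 1436 CPM in the spleen sets. Tnf, the classical target, was read in 9.49% of small intestinal and 15% of splenic cells and had a log2 ratio of 0.34.

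Across cells, the members hardly moved together. The mean Spearman correlation over member pairs was 0.022 in the small intestine and 0.018, 0.032 and 0.038 in the spleen sets, beside 0.013 to 0.021 over pairs of all genes tested. In the small intestine 2 pairs reached 0.3, Nfkbia with Nfkbiz and Nfkbia with Nfkbid, both at 0.41, and in the spleen sets these pairs lay between -0.01 and 0.18. In each spleen set 1 pair reached 0.3, a different one each time (Rel with Cd83, Traf6 with Zc3h12a and Traf1 with Zc3h12a). The module mean had a correlation of 0.35 to 0.37 with the number of genes with a read in every set and of -0.04 to 0.08 with the read total. All correlations here are descriptions over cells that share a library preparation, in counts with many zeros.

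The genes outside the list whose level followed the module mean most closely, by the mean Spearman correlation over the 4 sets, were Gadd45b (0.29) and then Batf, Bhlhe40, Orai1 and Furin (0.26 each). Gadd45b had correlations of 0.36 in the small intestine and 0.21, 0.24 and 0.33 in the spleen sets. Batf, an AP-1 family factor, had 0.10 in the small intestine and 0.31 to 0.33 in the spleen.

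The relation of the module to effector cytokines differed between sets. With Ifng, the gene of interferon-gamma, the module mean had a Spearman correlation of 0.26 in the small intestine, 0.03 and -0.01 in the p1 spleen sets and 0.25 in the p2 spleen set. Given the number of genes with a read and the read total, the partial correlations were 0.27, 0.05, -0.07 and 0.23. With cells that had a Foxp3 read left out, the median of the 3 spleen sets was 0.23 in place of 0.03, and the small intestine had 0.31. With Il10 the correlations were 0.02 in the small intestine and 0.14, 0.18 and 0.32 in the spleen sets. With Ccl3, the gene of an inflammatory chemokine, they were 0.16 and 0.07, -0.13 and 0.16. Differences between sets were not tested.

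The same was computed for single members. In the small intestine 5 of 32 members had a correlation of at least 0.2 with Ifng (1.11% of all genes), namely Rel (0.39), Nfkbiz (0.37), Bcl3 (0.28), Nfkbia (0.24) and Nfkb2 (0.21), while Tnfaip3 had 0.18 and Bcl10 was lowest at -0.24. In p2 spleen cells 4 members did (4.57% of all genes), Rel (0.23), Bcl3 (0.22), Traf2 (0.22) and Traf1 (0.20). In columns 1 to 12 of p1 no member did (2.13% of all genes), and in columns 13 to 24 only Icam1 did, at 0.23 (3.21% of all genes). In the p1 spleen sets Rel had 0.09 and 0.00, and Nfkbiz 0.17 and 0.11. Rela (-0.13) and Nfkb1 (-0.03) did not reach 0.2 in the small intestine. Most of these values are weak, and in sparse counts they are descriptions only.

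With Il10, 2 members reached 0.2 in the small intestine (0.777% of all genes), Nfkbiz (0.28) and Malt1 (0.25). In p2 spleen cells 3 did (6.2% of all genes), Malt1 (0.42), Nfkb2 (0.26) and Bcl3 (0.20). In columns 1 to 12 of p1 2 did, Nfkb2 (0.30) and Malt1 (0.22), and in columns 13 to 24 another 2, Tnfaip3 (0.23) and Bcl3 (0.22), each against 2.33% of all genes. Malt1 had 0.22 and 0.09 in the p1 sets, so its correlation with Il10 was positive in all 4 sets although it was lower in the tissue with more Il10 (2361 CPM against 1959, 1921 and 806.6 CPM). With Ccl3, 2 members reached 0.2 in the small intestine (1.79% of all genes), Nfkbiz (0.32) and Rel (0.20), 3 did in columns 1 to 12 of p1 (2.01% of all genes), Bcl10 (0.22), Traf3 (0.22) and Ikbkb (0.20), and none in columns 13 to 24 of p1 (3.05% of all genes) or in p2 spleen cells (4.41% of all genes). Nfkbiz was the one member at 0.2 or more with all 3 genes in the small intestine.

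**Figure D5:**
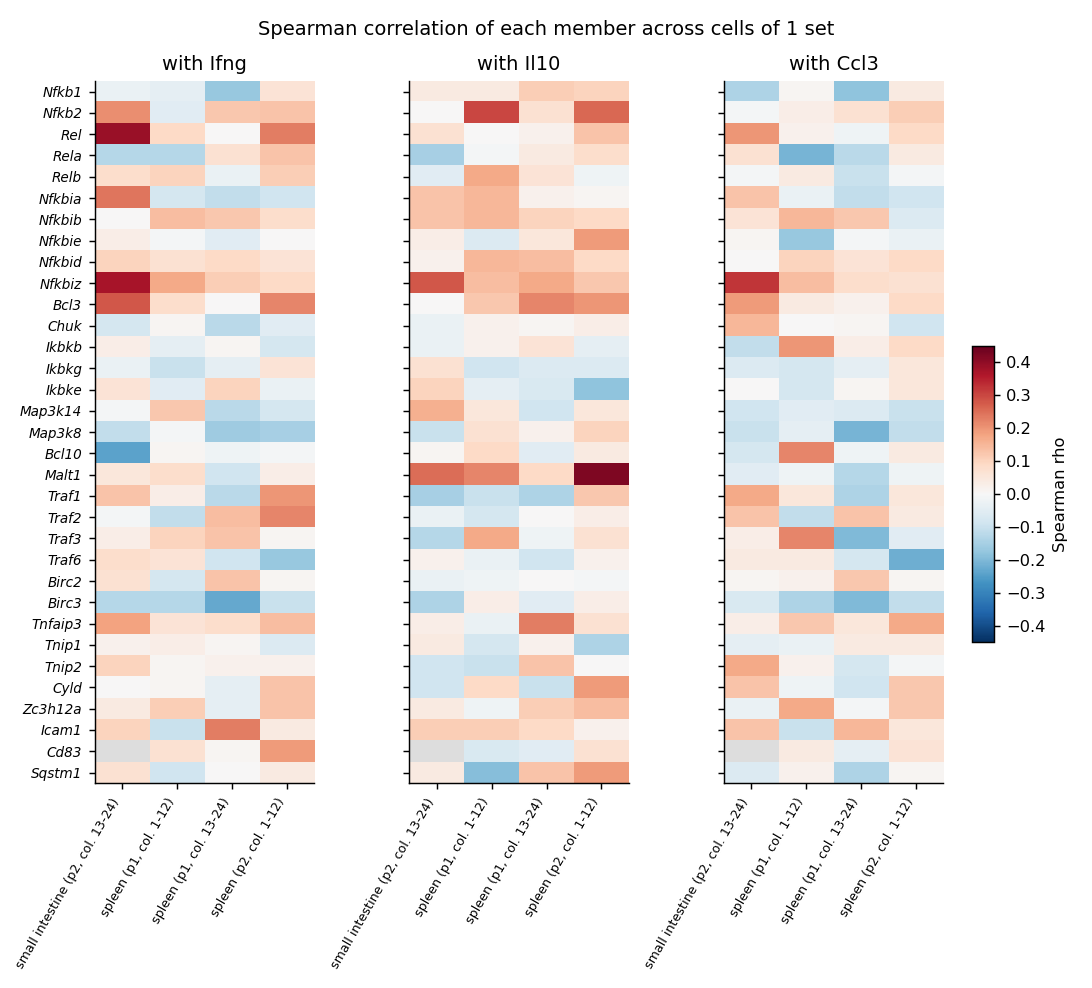
Spearman correlation across cells (colour scale from blue, negative, to red, positive) of each member (rows) with Ifng, Il10 and Ccl3 (panels) in the small intestine and the 3 spleen well sets (columns); grey marks Cd83, which had 0 reads in the small intestine. The darkest cells are Malt1 with Il10 in p2 spleen cells (0.42) and Rel (0.39) and Nfkbiz (0.37) with Ifng in the small intestine.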

How the data were processed

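Single IL-10 reporter-positive CD4+ T cells were sequenced with SMART-seq2. The authors aligned paired reads with STAR and deposited read counts per gene, 1 column per cell. The labels name the build mm10 and the study's methods another, and the counting tool and annotation are not given in the sources used here, so positions come from RefSeq only (GRCm38.p6). Of the columns, 0 were left unused, and 88 rows joined several genes. The reads carry no molecular identifiers, cells were sorted singly into wells, and no doublet caller was run.

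Cells over 3 median absolute deviations below the tissue median of log reads or log genes were removed (limits of 170584 reads and 1765 genes in the small intestine, 161898 and 1793 in the spleen), then those that cyclone placed in S or G2M (scran 1.30.0, R 4.3.3, 635 of 667 marker genes). This left 137 of 190 small intestinal and 399 of 574 splenic cells (132, 145 and 122 in columns 1 to 12 of p1, 13 to 24 of p1 and 1 to 12 of p2). CPM was computed here over gene rows without the reporter. Ratios used a pseudocount of 1 CPM, which understates low genes. Scripts ran in Python (numpy 2.4.6, scipy 1.17.1) and were tested on simulated data; TMM (edgeR 4.0.16) and DESeq2 1.42.0 size factors gave alternative scalings. No count model was fitted, because each tissue is 1 sample. Since levels were not divided by transcript length, levels of different genes were not compared.

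The members, lists and alternatives were chosen with earlier results of these data known. Every member is named; full values go to the 12 tested members with the largest absolute ratio and to Nfkbia, Tnfaip3 and the 5 subunits. From outside come Ifng, Il10, Ccl3, the 5 genes most like the module and the 3 genes of each pathway list with the largest absolute ratio; genes of the marker and stress lists were named after their values were seen.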

Additional observations from a re-analysis of the deposited data

Results flagged for a closer look

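Cells called S or G2M were outside the comparisons and differed in Tnfaip3 in the same direction. All 34 such small intestinal cells had a read (100%, 95% exact interval 89.7 to 100%), against 70.8% of the splenic ones (62.7 to 78.1%). The mean level was 1517 and 169.8 CPM, a log2 ratio of 3.15. In the same cells Nfkbiz had a log2 ratio of 1.52, Nfkbia of 1.26 and Malt1 of -1.85, and the module difference was 0.64. These cells come from the same plates and tissues as the kept cells and are no independent sample.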

How the results depend on the processing

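The module difference of 0.75 stayed positive under all alternatives run. It was 0.64 with no cell filter, 0.52 and 0.98 with pseudocounts of 10 and 0.1 CPM, 0.84 with median-of-ratios scaling and 0.85 against p2 spleen cells only. It was 0.20, in units of the SD, with each member scaled to an SD of 1. In alternatives chosen after seeing the data it was 0.89 without cells with a Cd8a read and 0.41 without Tnfaip3, Nfkbiz and Nfkbia. With each spleen set left out in turn it lay between 0.71 and 0.79. The count of members 2-fold higher was 6 to 8 in 14 alternatives, against 5.39 to 10.3% of all genes. Against p2 spleen cells 7 were higher (9.04% of all genes), of which 6 were among the main calls and Rel was added. The count of members 2-fold lower was 2 with a limit of 1 CPM (17.6% of all genes) or none (8.69%), where Cd83 joined Malt1. It was 0 against p2 spleen cells (17.6% of all genes). The median over spleen sets of the correlation between the module and Ifng was 0.23 without cells with a Foxp3 read, against 0.03; the cause was not tested. TMM and median-of-ratios scaling moved the median ratio of all genes from -0.21 to -0.04 and -0.02. No paired analysis was possible because the labels name no animal, so small intestinal and splenic cells cannot be matched by mouse. Depth limits statements on members with a median of 0, and no replicate animal bears on any ratio.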
